A study of Mus musculus with 6 samples.

Results

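The ubiquitin system tags proteins with ubiquitin and sends many of them to the proteasome. Its genes were followed in Melan-a melanocytes after transfection of an siRNA against Dicer, the nuclease that makes mature microRNAs. The members were the probe sets of the deposited table whose platform annotation gave exactly 1 gene symbol beginning with Usp, Ube2, Ube4, Ubr, Ubx, Fbxo, Fbxl, Fbxw, Psma to Psmd, Cul, Rnf or Trim, with a number where the family names carry one. Usp45 and Ube2c were left out by the rule. This gave 79 genes, each with 1 probe set, of 7486 genes that had a probe set of their own. Their probe sets were numbered on chromosome 1 (14 genes), chromosome 2 (22), chromosome 3 (18) and chromosome 4 (25), while the RefSeq gene table holds 385 protein-coding genes with such names over all chromosomes. The other family members were not analysed here, so a family is described by the members measured.

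Melan-a is an immortal line of female C57BL/6 mouse melanocytes. All cultures grew in F12 medium with serum and the phorbol ester TPA and were transfected with a lipid reagent under a magnetic field. They received siDicer or the control siRNA siScr, and RNA was taken 24 hours later. There were 3 arrays per group, described as biological replicates, from passages 47, 54 and 56 in each group. The line is a single established culture, and an siRNA lowers a transcript transiently. Dicer1 was not analysed here, so the groups rest on the labels. Arrays correlated across probe sets with r from 0.994 to 0.997 between groups, and RNA integrity numbers were 9.7 to 10.0. All 4 melanocyte markers measured lay above the level taken as background, and Tyrp1, a melanin-synthesis enzyme, stood at 12.83 log2 units in siScr and 12.86 in siDicer. One of these 4, Mreg, a protein of melanosome transport, passed the test described below as higher in siDicer, at 7.002 against 6.38 (adjusted p = 0.0435, and 0.0877 without the block). That background level was 4.22 log2 units, the 95th percentile of 426 olfactory and vomeronasal receptor genes. Of the markers of other cells, 5 of 5 fibroblast, 5 of 8 immune and 2 of 5 keratinocyte genes lay above it, and 0 of these 18 passed the test of siDicer against siScr.

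Ubiquitin is passed from an activating enzyme to a conjugating enzyme, or E2, and a ligase, or E3, then places it on a substrate. One large group of ligases carries a RING domain, as Rnf and many Trim proteins do. Another is built on a cullin scaffold that holds an F-box or BTB adaptor. Deubiquitinases such as the Usp enzymes take the tag off. The AAA ATPase p97 pulls tagged proteins out of membranes and complexes with the help of UBX proteins, and the proteasome, a 20S core under a 19S cap, unfolds and cuts them. In melanocytes these enzymes are known to govern the lifetime of pigment enzymes and of lineage transcription factors.

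None of the 79 genes passed the test of siDicer against siScr. No member reached an adjusted p under 0.05 (limma with the replicate number as a block, Benjamini-Hochberg over 16383 probe sets), against 0.995% of all probe sets, of which 0.757% were higher and 0.238% lower. Without the block again 0 members passed, against 0.214%. An unadjusted p under 0.05 was reached by 13 of 79 members, 6 higher and 7 lower, which is 16.5% against 15.7% of all probe sets (8.82% higher and 6.85% lower). Among genes above the background level given above that share was 20.1%. Without the block 7 members reached it. The members' log2 differences, siDicer minus siScr, ran from -0.30 for Ube2l6 to 0.31 for Trim63. Their median was 0.00, and that of all probe sets was -0.01. The median size without regard to sign was 0.08 for the members and 0.07 for all probe sets.

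The intervals show how large a change the arrays could have missed. In the fit with the block, the 95% confidence interval of the difference lay inside a 1.5-fold change in either direction for 79 of 79 members. For 76 it lay inside 1.3-fold. These bounds do not carry over to the fit without the block, where the SE of Ube2l6 was 0.18 against 0.07. Over all probe sets these shares were 98.5% and 89.1%. The 3 genes whose interval reached past 1.3-fold were Ube2l6, Usp1 and Trim63. The intervals are those of single genes, not widened for the number of genes, and they are on the scale of the deposited signals, where background compresses differences between dim probe sets. Of the members, 76 lay above the receptor level; Trim55, Trim69 and Ube2u did not.

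**Figure D1:**
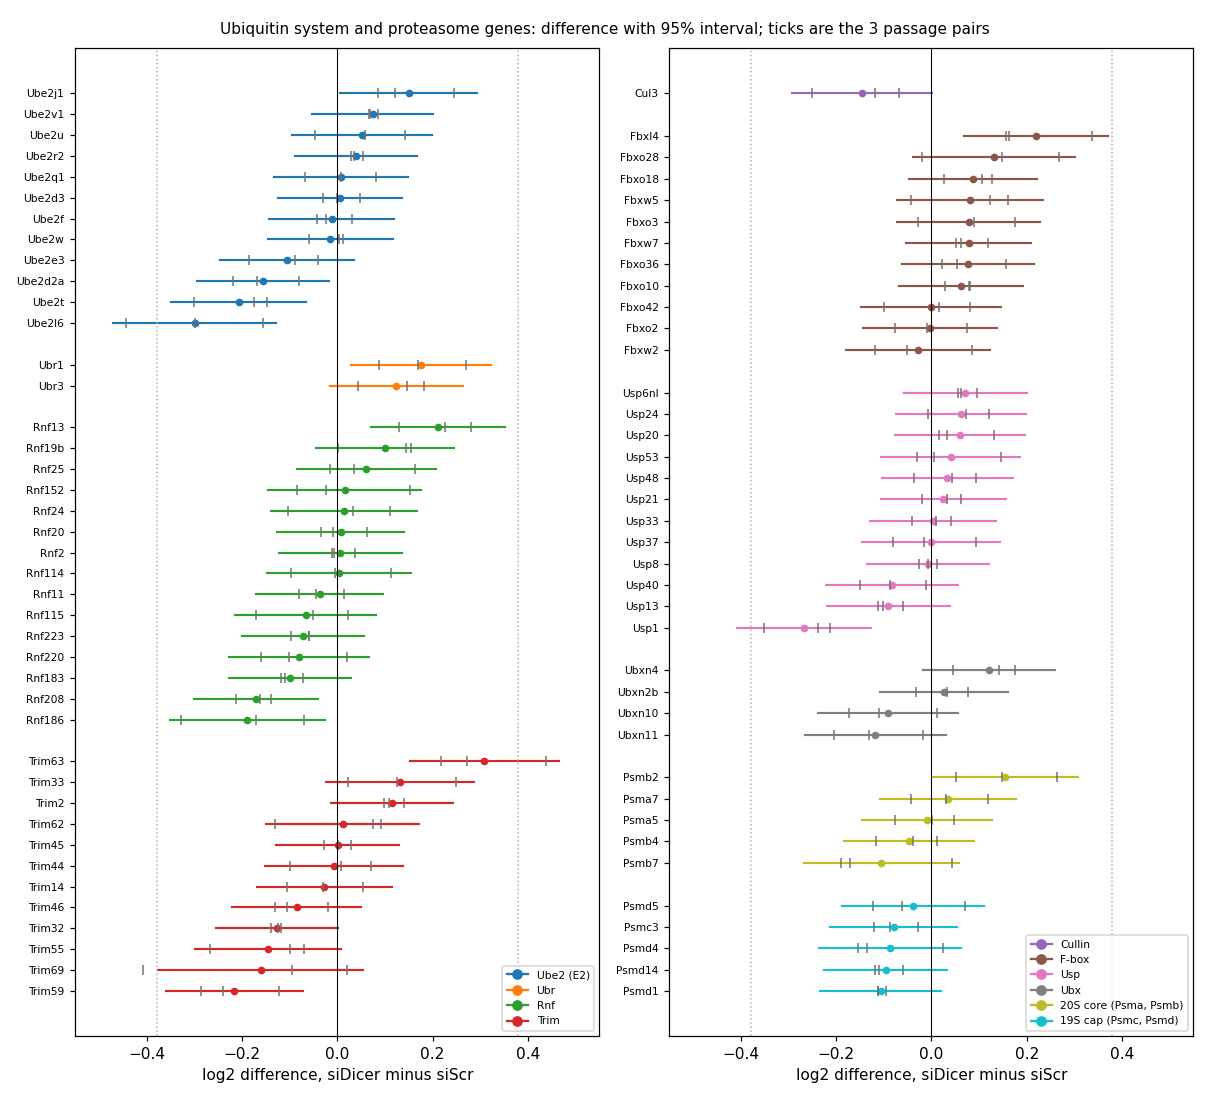
The log2 difference (siDicer minus siScr, horizontal axis) of each of the 79 genes, grouped by family, with the 95% confidence interval of the paired limma fit as a line and the 3 same-passage differences as grey ticks; dotted lines mark 1.3-fold. Most intervals cross 0, and Trim63 on the right and Ube2l6 and Usp1 on the left lie farthest out, although none passed the adjusted threshold.

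**Figure D2:**
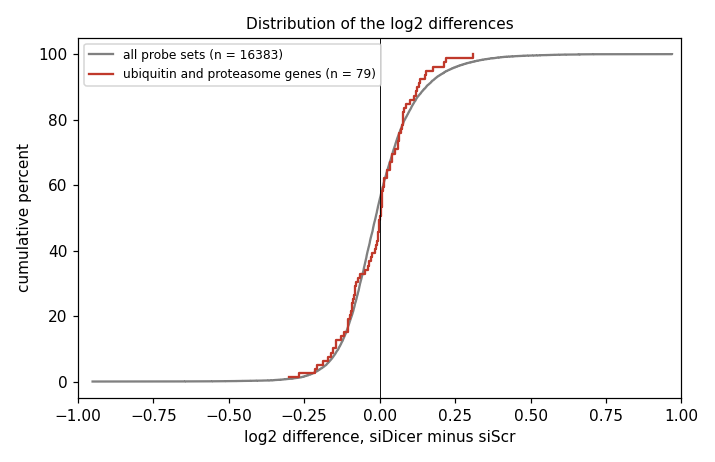
Cumulative percent (vertical axis) of the log2 differences (horizontal axis, siDicer minus siScr, shown from -1 to 1) for the 79 genes and for all 16383 probe sets. The curves lie close together around 0, and the genes of the ubiquitin system have no values beyond -0.30 and 0.31.

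Direction was split evenly. In siDicer 40 members were higher and 39 lower, a split that became 29 and 50 after quantile normalization and 47 and 32 after centring the arrays on their medians. In all 3 same-passage pairs 19 members were higher and 20 lower, together 49.4%, against 40.4% of all probe sets (17.9% higher and 22.6% lower). Among genes above the receptor level, where the members mostly lie, 52.0% kept 1 sign in all pairs. The 3 siDicer arrays did not overlap the 3 siScr arrays for 19 members, 8 higher and 11 lower, or 24.1%, against 15.9% of all probe sets (7.57% higher and 8.29% lower). Among genes above the receptor level that share was 19.4%.

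The conjugating enzymes held the lowest difference and a wide range. Of 12 measured Ube2 genes 6 were higher and 6 lower, with a median of -0.00, and no Ube4 gene was among the members. Ube2l6, the E2 for the ubiquitin-like protein ISG15, stood at 7.93, 8.66 and 8.16 log2 units in siScr at passages 47, 54 and 56 and at 7.78, 8.22 and 7.86 in siDicer. Each siDicer array was below its own passage, but the groups overlapped because passage 54 was high in both. The difference was -0.30 ± 0.07 (SE; adjusted p = 0.133, and 0.631 without the block).

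Ube2t, the E2 that places ubiquitin on the Fanconi anaemia protein FANCD2, measured 6.42, 6.66 and 6.73 in siScr and 6.12, 6.51 and 6.56 in siDicer in the same order of passages. It was lower in every pair while the groups overlapped, with a difference of -0.21 ± 0.06 (SE; adjusted p = 0.183). Ube2j1, an E2 of the endoplasmic reticulum membrane that serves the disposal of misfolded proteins, was at 8.62 ± 0.13 in siScr and 8.77 ± 0.05 in siDicer (SD, n = 3 each) and did not pass (adjusted p = 0.302). The probe set annotated as Ube2d2a differed by -0.16 (adjusted p = 0.272). It is numbered on chromosome 3, whereas the gene table places Ube2d2a elsewhere, so its signal may not be that of the gene.

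Several other Ube2 genes differed little. Ube2d3, a partner of many RING ligases, differed by 0.01 with an interval from -0.13 to 0.14. Ube2r2, which builds chains with SCF ligases, differed by 0.04, and Ube2f, which conjugates NEDD8 to cullins, by -0.01. Ube2v1, the catalytically inactive partner in making lysine-63-linked chains, measured 7.54, 7.55 and 7.53 in siScr and 7.63, 7.62 and 7.60 in siDicer. Its groups did not overlap, yet the difference of 0.07 gave an adjusted p of 0.538.

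Apart from Usp1, the deubiquitinases differed little. Of 12 measured Usp genes 7 were higher and 5 lower, with a median of 0.01, and all but Usp1 had a difference between -0.09 and 0.07. One of the 12, Usp6nl, fits the name pattern but is known as a GTPase-activating protein for Rab GTPases. Usp8, which acts on receptors at endosomes, differed by -0.01 with an interval from -0.14 to 0.12. Usp13, the second gene of the family by p-value, measured 4.30, 4.36 and 4.29 in siScr and 4.18, 4.26 and 4.22 in siDicer, close to the receptor level (difference -0.09, adjusted p = 0.459).

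Usp1, which takes ubiquitin off FANCD2 and PCNA, was lower than its own passage on all 3 siDicer arrays. It stood at 9.12, 9.27 and 9.27 in siScr and at 8.77, 9.04 and 9.06 in siDicer, with no overlap between groups. This is a 1.2-fold lower level, a difference of -0.27 ± 0.06 (SE; adjusted p = 0.112, and 0.401 without the block). When only probe sets with 1 gene symbol were tested and adjusted over, Usp1 passed as lower (adjusted p = 0.042).

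Ube2t and Usp1 act on the same substrate in opposite ways, and both were lower without passing. Of 11 genes listed for dividing cells and measured, 7 did not pass and 4 passed as lower in the same fit: Aurka, Tpx2, Bub1 and Cenpe. Of all probe sets 0.995% passed, with 0.238% lower. The list was chosen with earlier results of these data known, so its count is a description. Without the block 0 of these 4 passed (adjusted p from 0.202 to 0.439). The differences of all 11 were below 0, with a median of -0.33. Their summed signal, as log2, ran from 12.04 to 12.40 in siScr and from 11.51 to 12.04 in siDicer. The part of these genes in the values of Usp1, Ube2t and Trim59 was not tested. In RNA from whole cultures, fewer cells of a kind and less RNA per cell cannot be told apart.

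**Figure D3:**
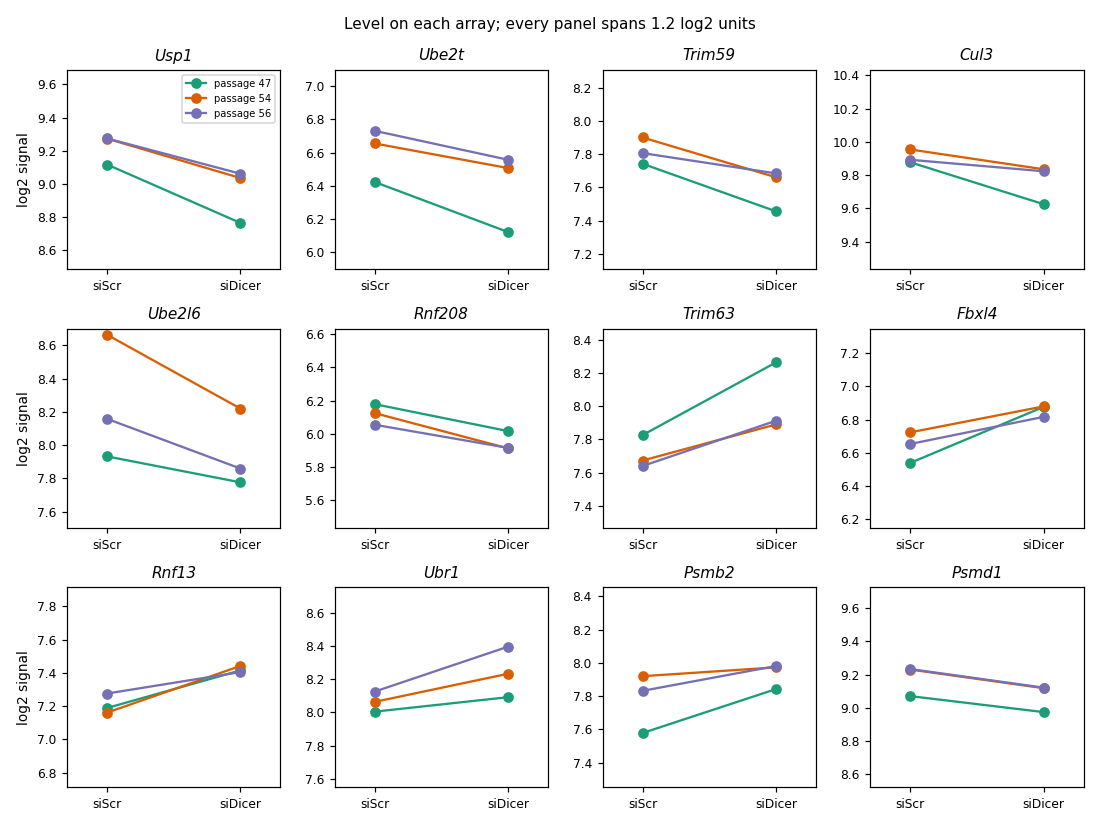
Level of 12 of the genes (vertical axis, log2 signal; every panel spans the same range) on each siScr and siDicer array, with a line joining the 2 arrays of a passage. Usp1, Ube2t and Ube2l6 slope down and Trim63, Fbxl4 and Ubr1 slope up at all 3 passages, and the distance between passages for Ube2l6 exceeds its difference between groups.

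The tripartite motif genes held the highest difference. Of 12 Trim genes 5 were higher and 7 lower, with a median of -0.02, and 6 had groups that did not overlap, 3 in each direction, where 15.9% of all probe sets did not. Trim63, also called MuRF1 and known for the breakdown of muscle proteins, measured 7.83, 7.67 and 7.64 in siScr and 8.26, 7.89 and 7.91 in siDicer. All siDicer arrays lay above all siScr arrays, and passage 47 was the highest in both groups. The level was 1.24-fold higher, a difference of 0.31 ± 0.06 (SE; adjusted p = 0.105, and 0.403 without the block). It passed as higher when testing was limited to probe sets above the median level (adjusted p = 0.0496) or to those with 1 gene symbol (adjusted p = 0.0409). Its relative Trim55, MuRF2, was below the receptor level at 3.84 to 4.14 on all arrays.

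Trim59 stood at 7.74, 7.90 and 7.81 in siScr and at 7.46, 7.66 and 7.68 in siDicer, without overlap, with a difference of -0.22 ± 0.06 (SE; adjusted p = 0.175). Trim32 differed by -0.13 and Trim33, which acts on SMAD4 in TGF-beta signalling, by 0.13, neither past the threshold (adjusted p = 0.319 and 0.382). Trim44, Trim45 and Trim62 differed by -0.01, 0.00 and 0.01.

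The Rnf genes made up the largest family, with 15 members, 8 higher and 7 lower and a median of 0.00. Rnf13, a membrane-bound RING ligase of endosomes and lysosomes, measured 7.19, 7.16 and 7.28 in siScr and 7.42, 7.44 and 7.41 in siDicer. The groups were apart and the siDicer arrays close to each other (difference 0.21 ± 0.06 SE, adjusted p = 0.176, and 0.299 without the block). Rnf208 was at 6.18, 6.12 and 6.05 in siScr and 6.02, 5.91 and 5.92 in siDicer, again without overlap (difference -0.17, adjusted p = 0.221). Rnf186 and Rnf183, related membrane ligases, also had siDicer arrays below all siScr arrays, with differences of -0.19 and -0.10 (adjusted p = 0.262 and 0.424).

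The ligases that mark histones differed little. Rnf2, the catalytic RING protein of Polycomb complex PRC1, differed by 0.01 with an interval from -0.12 to 0.14. Rnf20, which ubiquitinates histone H2B, also differed by 0.01, with an interval from -0.13 to 0.14. Quantile normalization turned the family's split to 4 higher and 11 lower, so no direction can be given to the Rnf genes as a group.

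Both measured Ubr genes were higher in siDicer in all 3 pairs. Ubr1, which recognises destabilising N-terminal residues, stood at 8.004, 8.06 and 8.12 in siScr and at 8.09, 8.23 and 8.39 in siDicer, with overlap between groups (difference 0.18 ± 0.06 SE, adjusted p = 0.25). Ubr3 measured 8.53, 8.52 and 8.49 in siScr and 8.57, 8.70 and 8.64 in siDicer, without overlap (difference 0.12, adjusted p = 0.36). Neither passed with or without the block.

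Cullin-RING parts showed small differences of mixed sign. Cul3, the scaffold that works with BTB adaptors such as KEAP1, was the one cullin measured. It stood at 9.88, 9.95 and 9.89 in siScr and at 9.62, 9.84 and 9.82 in siDicer, below every siScr array, with a difference of -0.15 ± 0.06 (SE; adjusted p = 0.319, and 0.556 without the block). The pair at passage 47 gave -0.25 and the pairs at passages 54 and 56 gave -0.12 and -0.07.

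None of the 11 F-box genes passed, and 1 had an unadjusted p under 0.05. The difference was above 0 for 8 of them, as for 7270 of 16383 probe sets, with a median of 0.08. The count above 0 was 8 after quantile normalization and 10 after centring, and it was 8 to 10 when a pair was left out. Fbxl4, an F-box protein of mitochondria that restrains mitophagy, measured 6.54, 6.72 and 6.65 in siScr and 6.88, 6.88 and 6.82 in siDicer. The groups did not overlap (difference 0.22 ± 0.06 SE, adjusted p = 0.183, and 0.341 without the block). Fbxw7, which directs Myc and cyclin E to destruction, was at 6.13, 6.19 and 6.16 in siScr and 6.25, 6.24 and 6.23 in siDicer, a difference of 0.08 (adjusted p = 0.526). Fbxo28 differed by 0.13 (adjusted p = 0.424), and the DNA helicase listed as Fbxo18, now named Fbh1, by 0.09 (adjusted p = 0.494).

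The 4 UBX genes split evenly, with a median of -0.03. Ubxn4, which brings p97 to the endoplasmic reticulum, stood at 9.29, 9.58 and 9.34 in siScr and at 9.46, 9.63 and 9.48 in siDicer (difference 0.12, adjusted p = 0.371). Ubxn11 differed by -0.12 (adjusted p = 0.408). Their relative Ubxn2b, a p97 cofactor, differed by 0.03.

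None of the 10 proteasome genes passed, and their differences were small. In the fit with the block the 95% intervals of all 10 lay inside 1.3-fold, from -0.27 at the lowest bound to 0.31 at the highest. In the 19S cap list 5 of 5 members were lower in siDicer, as were 9113 of 16383 probe sets. The 5 differences lay between -0.11 and -0.04, with a median of -0.09. On the same arrays the count remained 5 of 5 after quantile normalization and centring, and it was 4 of 5 without replicate 2. Psmd1, the scaffold Rpn2, measured 9.07, 9.23 and 9.23 in siScr and 8.97, 9.12 and 9.12 in siDicer. Its 3 paired differences were -0.10, -0.11 and -0.11, and the adjusted p was 0.391. Psmd14, the deubiquitinase of the cap, differed by -0.10 (adjusted p = 0.438), the ATPase Psmc3 by -0.08 and the ubiquitin receptor Psmd4 by -0.09. Psmd5, an assembly chaperone of the cap and no part of the finished particle, differed by -0.04.

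In the 20S core 2 of 5 members were higher, and the split was 1 higher after quantile normalization and 3 after centring. Psmb2 was at 7.58, 7.92 and 7.83 in siScr and 7.84, 7.97 and 7.98 in siDicer, higher in each pair (adjusted p = 0.31). Psmb7, which carries the trypsin-like site, measured 9.57, 9.99 and 9.89 in siScr and 9.61, 9.80 and 9.72 in siDicer. Its sign differed between pairs, with 0.04 at passage 47 and -0.19 and -0.17 at the later ones (adjusted p = 0.493). Psma5, Psma7 and Psmb4 had differences of -0.01, 0.04 and -0.05.

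Differences between passages were of like size among the members and all probe sets. They are given as a description, since each was 1 culture series with a single array per group. For 55 of 79 members, or 69.6%, the range of the 3 passage means exceeded the siDicer difference, and for 73.6% of all probe sets. A range over 3 means of 2 arrays is by construction often larger than a difference of 2 means of 3 arrays. The median range was 0.13 log2 units for the members and 0.13 for all probe sets. Of the 10 proteasome genes 9 were lowest at passage 47 in both groups, the exception being Psmd4. The mean of passages 54 and 56 exceeded passage 47 by a median of 0.19 log2 units in siScr and 0.15 in siDicer over these 10. Passage 47 was also the lowest in both groups for 10 of 12 Ube2 genes, a count that was 5 after quantile normalization, and the largest passage range of any member, 0.59, was that of Ube2l6. Of 12 Trim genes 6 were highest at passage 47 in both groups, as were 20.0% of all probe sets, and 1 was lowest.

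Being lowest at passage 47 was more frequent among brighter genes, and the cause was not tested. Over all members 40 of 79, or 50.6%, were lowest at passage 47 in both groups, against 15.7% of all probe sets. Of the 5118 genes above the receptor level, where the members mostly lie, 26.4% were so. Of the 1465 genes brighter than the members' median level 49.4% were so, but many members do not reach that level themselves. After quantile normalization the shares were 21.5% of the members, 15.7% of genes above the receptor level and 19.6% of the brighter genes. The proteasome count went from 9 to 6 of 10 after quantile normalization and to 10 of 10 after centring. After quantile normalization the proteasome share of 60% and the Ube2 share of 41.7% were above the 19.6% of the brighter genes.

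**Figure D4:**
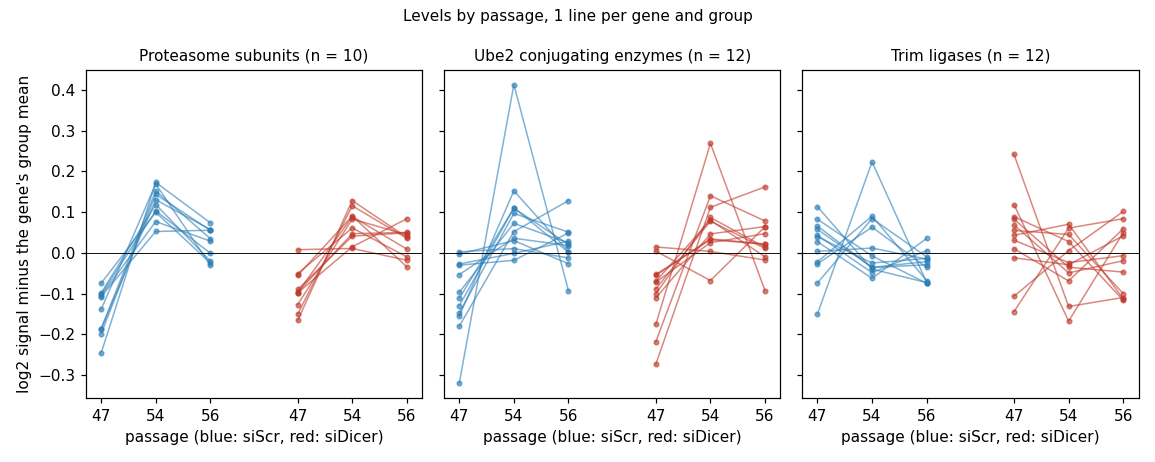
Levels at passages 47, 54 and 56 (horizontal axis, spaced evenly) as log2 signal minus each gene's mean in that group (vertical axis), for the 10 proteasome, 12 Ube2 and 12 Trim genes, siScr in blue and siDicer in red. Proteasome lines start low at passage 47 in both groups, while Trim lines show no common course.

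Other genes of the pathway did not pass either. From a list of ubiquitin, E1, cullin partner, ligase, deubiquitinase and p97 genes outside the name patterns, 37 were measured and 0 passed (limma; 7 had an unadjusted p under 0.05, 3 higher and 4 lower, or 18.9% against 15.7% of all probe sets). Their median difference was 0.01. Traf6, a RING ligase of immune signalling, had the smallest p, with a difference of 0.37 ± 0.06 (SE; adjusted p = 0.0539). Psmf1, a regulator that binds the 20S core, was at 7.38 on average and differed by -0.23 (adjusted p = 0.141), and Hltf, a ligase for PCNA, by 0.24 (adjusted p = 0.214). Uchl5, a deubiquitinase bound to the 19S cap, was lower in all 3 pairs with a difference of -0.19 (adjusted p = 0.224). The segregase Vcp, p97 itself, differed by -0.08 (adjusted p = 0.515), and Nfe2l2, a transcription factor held down by KEAP1 and CUL3, by 0.08 (adjusted p = 0.591).

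Promoters were looked at for letters the members share. RefSeq promoters of the GRCm38.p6 build, each 300 bases around a gene's start, were at hand for 64 of the 79 genes, 85 promoters in all. On either strand, the Ets core CCGGAAG occurred in 17 of the 85, or 20.0%, against 11.6% of 21262 promoters of protein-coding genes and 8.86% of all 32851. The antioxidant response core TGACNNNGC occurred in 15.3%, against 13% of protein-coding promoters and 12.4% of all, and the E-box CACGTG in 8.24%, against 7.84% and 7.15%. No motif searched contains another, and several promoters of a gene count separately. Of 7 proteasome promoters 1 held the Ets core and 0 held the other motifs. Some matches from genes described above are shown with their surroundings, the motif in capitals on the strand of the gene.
Ubr1, Ets core, chr2:120970728-120970754, minus strand: gggaagccgaCCGGAAGccgctccggg
Psmd4, Ets core, chr3:95042723-95042749, minus strand: tacagctgttCCGGAAGctgctgcgaa
Ubxn4, antioxidant response core read on the opposite strand, chr1:128244089-128244117, plus strand: ctcactgcagGCGACGTCAacgtgccgta
Ubxn11, E-box, chr4:134102489-134102514, plus strand: tttgaagtctCACGTGcaaccctatg
The Ets core also occurred in the promoter of Fbxl4, and the antioxidant response core in those of Usp13 and Trim59. The genes with the Ets core here, Ubr1, Psmd4 and Fbxl4, differed by 0.18, -0.09 and 0.22, and none passed. A match is a description of letters and not a bound site.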

How the data were processed

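The authors deposited log2 signals per probe set for 6 mouse Clariom D arrays, 3 siDicer and 3 siScr, and the submitters' processing notes name Affymetrix Expression Console. Its version and the background correction and normalization it applied were not stated there, in the labels or in the file. Array medians lay between 4.58 and 4.64. The number of arrays limits the precision. Of 16383 probe sets 7530 had 1 gene symbol in the platform annotation, 455 several and 8398 none; repeats of a symbol counted once, and 5 probe sets that paired a matching symbol with another gene were not members. Symbols were updated by Entrez number.

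All probe sets were fitted with limma 3.58.1 in R 4.3.3 (lmFit, eBayes), siDicer minus siScr, with replicate number as a block, since the members' rule pairs by number and same-numbered arrays share a passage per the labels. Deviations from group means correlated within numbers with r of 0.44, 0.41 and 0.24. The threshold was an adjusted p of 0.05. Beyond the passage, nothing in the labels says more of the replicates than that they are biological. With the block, p-values measure the spread of the same-passage differences of these samples. Without it, they measure the spread between the samples of a group. Members and lists were chosen with earlier results of these data known. The text names the 2 genes of smallest p in each family and the 3 of the companion list; others were named after their values were seen. The fits were tested on simulated data. Alternatives were no block, other scaling, trend, weights, filters, row choice and leaving out pairs.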

Additional observations from a re-analysis of the deposited data

How the results depend on the processing

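No member passed in 9 of 11 refits, and the smallest adjusted p of any member ran from 0.0409 to 0.299. The exceptions tested fewer probe sets: 1 member passed, 1 higher (Trim63), above the median level, and 2 passed, 1 higher and 1 lower (Trim63 and Usp1), among probe sets with 1 symbol. Of 208 values of the 19 genes named by rule, 205 kept direction and side of the threshold, 3 newly passed and 0 reversed. A reversal was possible only with other scaling, array weights or a pair left out. The other refits keep a member's log2 difference by construction and could move only its p-value. The members' median was -0.0278 after quantile normalization; the cause was not tested. Counts over all probe sets were 163 with the replicate block and 35 without, 84 after quantile normalization, 302 with an intensity trend, 388 above the median level, 281 with 1 symbol, and 0 to 157 with a pair left out (0 without replicate 2 or replicate 3). Traf6 alone of the companion genes passed, 1 call each with the trend, above the median level and with 1 symbol. Leaving out Ube2d2a and Usp6nl, or members below the receptor level, was chosen after seeing the data; with 0 called among all members it could call none. Without the block 0 members passed in limma, so the pairing changed no member's call. Dim probe sets limit what could be seen for Trim55, Trim69 and Ube2u.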
